A study of Mus musculus with 12 samples.

Results

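The translation initiation and elongation factors of the cytosol were followed in mouse muscle stem cells (MuSCs), the resident stem cells of skeletal muscle, and in the primary myoblasts grown from them. Members were the genes whose symbol begins with Eif or Eef and a digit. The eIF2 kinases (Eif2ak symbols), the Y-linked Eif2s3y and pseudogene symbols were left out. This gave 64 genes of the 17505 listed in either of 2 expression tables, 64 in the table of MuSCs and myoblasts (16503 genes) and 63 in the table of the 2 genotypes (16169 genes). They belong to 17 factors or factor complexes, of which eIF3 is the largest with 14 genes. Eef1a2 was in neither table and was not analysed here.

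The first table holds 3 libraries of MuSCs freshly sorted from WT mice and 3 of myoblasts grown for 3 days from sorted WT MuSCs, in Ham's F10 with serum and bFGF, both numbered 04, 05 and 06. In the descriptions each MuSC library also shares an identifier with the myoblast library of its number, without a stated meaning. The labels do not say which mice these 6 libraries came from, so p-values measure the spread between libraries. The second table holds freshly sorted MuSCs of 3 WT and 3 Nedd4L-cKO mice, male and aged 5 to 6 weeks. In the Nedd4L-cKO, Nedd4L fl/fl Pax7 cre/+ on a C57BL/6 background, Cre expressed from the Pax7 locus removes exon 15 of the gene for the E3 ubiquitin ligase Nedd4L, while the gene is still transcribed. The deletion is inherited by every cell that descends from a Pax7-expressing cell, myofibers included, and the alleles of the WT controls are not stated beyond WT. RNA of 1000 cells per library was amplified with SMART-seq. Expression is given as RPM, normalized counts per 1000000 of the mean of a table's 6 library totals. Between genes, RPM was also divided by transcript length (RPM per kb).

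Initiation factors bring the small ribosomal subunit and the initiator tRNA to the start codon of an mRNA, and elongation factors carry the ribosome along the coding sequence. eIF2 delivers the initiator tRNA and is recharged with GTP by eIF2B, and phosphorylation of eIF2 blocks this exchange in the integrated stress response. The cap-binding complex eIF4F joins eIF4E, which holds the cap, to the scaffold eIF4G and the RNA helicase eIF4A, and eIF4E-binding proteins (4E-BPs) compete with eIF4G until mTORC1 phosphorylates them. Quiescent MuSCs are known for low protein synthesis and for phosphorylated eIF2. All values here are transcript levels, which say nothing of protein amount or phosphorylation.

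The library totals of normalized counts were 33189802 to 37595659 in the first table and 40323468 to 50687122 in the second. The tables were normalized separately by the authors, and the read depth behind them is unknown. Transcripts of the mitochondrial genome made up 0.855% to 1.71% of the first table's libraries, 2.83% to 4.04% of the WT libraries and 5.60% to 6.21% of the Nedd4L-cKO libraries. Of 9 MuSC markers, 7 were lower in myoblasts by limma, Pax7 among them (249, 158 and 151 RPM in MuSCs 04, 05 and 06, 17.8 to 21.2 RPM in myoblasts). Of 7 myoblast and cycling markers, Myod1, Myog and Mymk were the 3 that passed as higher, and 0 passed as lower. The cycling genes of that list, Mki67, Top2a, Ccnb1 and Cdk1, did not pass. Of 8 myofiber genes, 6 were higher in myoblasts, and their summed level was 357 to 538 RPM in MuSCs and 8992 to 20593 RPM in myoblasts. The summed level of 7 fibro-adipogenic markers was 1886 to 2134 RPM in MuSCs and 127 to 201 RPM in myoblasts. The part of these cells in the results below was not tested, and in bulk libraries a change in the share of cells cannot be told apart from a change in RNA per cell. Nedd4l was at 66.7 to 96.4 RPM in WT and 22.5 to 36.3 RPM in Nedd4L-cKO MuSCs (limma adjusted p = 0.0467). In the second table the MuSC markers Cd34 and Chrdl2 passed as lower in the Nedd4L-cKO by limma, 2 of the 9 tested, and 0 passed as higher. Of the 7 myoblast and cycling markers, the mitotic cyclin Ccnb1 alone passed as higher, and 0 passed as lower. At an unadjusted p under 0.05, 3 of the 9 MuSC markers were lower and 4 of the 7 myoblast and cycling markers higher. The summed level of 5 smooth muscle and pericyte markers was 1137 to 1870 RPM in WT and 2136 to 3143 RPM in Nedd4L-cKO MuSCs, and that of the 7 fibro-adipogenic markers 1567 to 2937 RPM and 1518 to 3637 RPM. The summed level of the 8 myofiber genes was 249 to 483 RPM in WT and 528 to 626 RPM in Nedd4L-cKO MuSCs, with 5 of them higher at an unadjusted p under 0.05 and 0 passing limma's adjusted threshold. Of 7 haematopoietic markers 4 were listed, with summed levels of 2.00 to 38.0 RPM in WT and 1.62 to 9.43 RPM in Nedd4L-cKO MuSCs, among them the leukocyte marker Ptprc at 0.140 to 0.465 RPM. The summed level of 5 red blood cell markers was 0.107 to 499 RPM in WT and 0.0652 to 1096 RPM in Nedd4L-cKO MuSCs. In the first table it was 23.1 to 417 RPM in MuSCs and 0.314 to 0.928 RPM in myoblasts. The part of all these cells in either comparison was not tested.

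Many translation factor mRNAs carry a terminal oligopyrimidine tract (5′ TOP), a C at the first base followed by pyrimidines, through which mTORC1 and Larp1 control their translation. The start sites of the canonical GENCODE transcripts were searched on GRCm39 for a C followed by at least 4 pyrimidines on the transcript strand. At the annotated base itself 3 of 64 members (4.69%) had these letters, against 3.62% of 21770 protein-coding starts. When the tract could begin within 5 bases of it, 14 members (21.9%) had them, against 14.6% of all starts. The windows below are 30 bases long, with the annotated start as base 16. Capitals mark the match found by the search, from its C to its last pyrimidine, and in Eif2s1, Eif3k and Eef1aknmt further pyrimidines stand directly before that C. The windows are shown because they include Eef1a1, the most abundant member per length in 3 of the 4 groups, and the members whose match sat at or across the annotated start.
Eef1a1 (chr9:78388992-78389021, - strand): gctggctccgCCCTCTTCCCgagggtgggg
Eif2s1 (chr12:78908578-78908607, + strand): tcgtcacagcgccctCTCTTggttgactaa
Eif3k (chr7:28681285-28681314, - strand): tggtgctgaaagcgcCTTTCCCTTTgcctt
Eef1aknmt (chr1:162376106-162376135, - strand): gcccaatcacgagacCTCTTacccggatat
Eif2s3x (chrX:93256301-93256330, - strand): ccgccttcccgccgCTTCCCCTTCgctccg
Eif3f (chr7:108533606-108533635, + strand): ttctgttctaggCTCTCTCTCTTTCTCggc
Eef1g (chr19:8944390-8944419, + strand): ccccacccctcgCTTTTTCCaactcagcgg
Eif3c (chr7:126165573-126165602, - strand): cgggaagtgacgCCCCCCCaaccttttcct
The tract of Eef1a1 began 5 bases before the annotated start and ran over it, and the longest, of 15 bases, was that of Eif3f. The search used annotated starts, not starts measured in these cells, so it cannot separate mRNAs with a 5′ TOP from those without. The 14 members with a match did not move in 1 direction in culture. Of these, 3 were lower and 4 higher in myoblasts at an adjusted p of at most 0.05 by limma. Over all tested genes 20.6% were lower and 22.2% higher. The estimate was below 0 for 9 of the 14 and for 38 of the 49 other tested members. The median log2 fold change was -0.07 for the 14 and -0.26 for the 49.

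Myoblasts differed from fresh MuSCs in 23 of the 63 tested members (adjusted p at or below 0.05, limma on log2(RPM + 1), Benjamini-Hochberg over 15345 genes), which is 36.5% of the members against 42.8% of all tested genes. Of these, 7 were higher in myoblasts (11.1%, against 22.2% of all genes) and 16 lower (25.4%, against 20.6%). The estimate was below 0 for 47 members and above it for 16 (25.4%, against 51.7% of all genes). The median log2 fold change was -0.22 over the members and 0.04 over all genes. This split depends on scaling. With each library scaled to its own total, 21 members were called, 11 higher and 10 lower, and the medians were -0.09 for the members and 0.14 for all genes, so that in both scalings the members lay below the median gene. The 2 groups did not overlap for 36 members (57.1%, against 55.2% of all genes), 12 with the myoblasts higher (28.4% of all genes) and 24 with the myoblasts lower (26.8%). Among the called members 2 were higher and 5 lower by a log2 fold change of 1 or more (3.17% and 7.94%, against 17.2% and 14.6% of all genes). Of the 23 calls, 10 stood under each of the 14 alternatives tried: Eif4g1, Eif3c and Eif4h (higher) and Eif4g3, Eif4a2, Eef1akmt2, Eef1a1, Eif1b, Eif3g and Eif4a3 (lower). The calls lost most often were Eif3h (in 10 of the 14), Eif2b1 (9), Eef1akmt3 and Eif1a (8 each) and Eif3e, Eif1ad and Eif4e3 (7 each). Leaving out 1 library gave 12 (without myoblast 05) to 24 calls, with 14 without fresh MuSC 06. Without myoblast 04, Eif2s2, Eif5a, Eif5b, Eif1ax and Eif2b5 were also called.

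**Figure D1:**
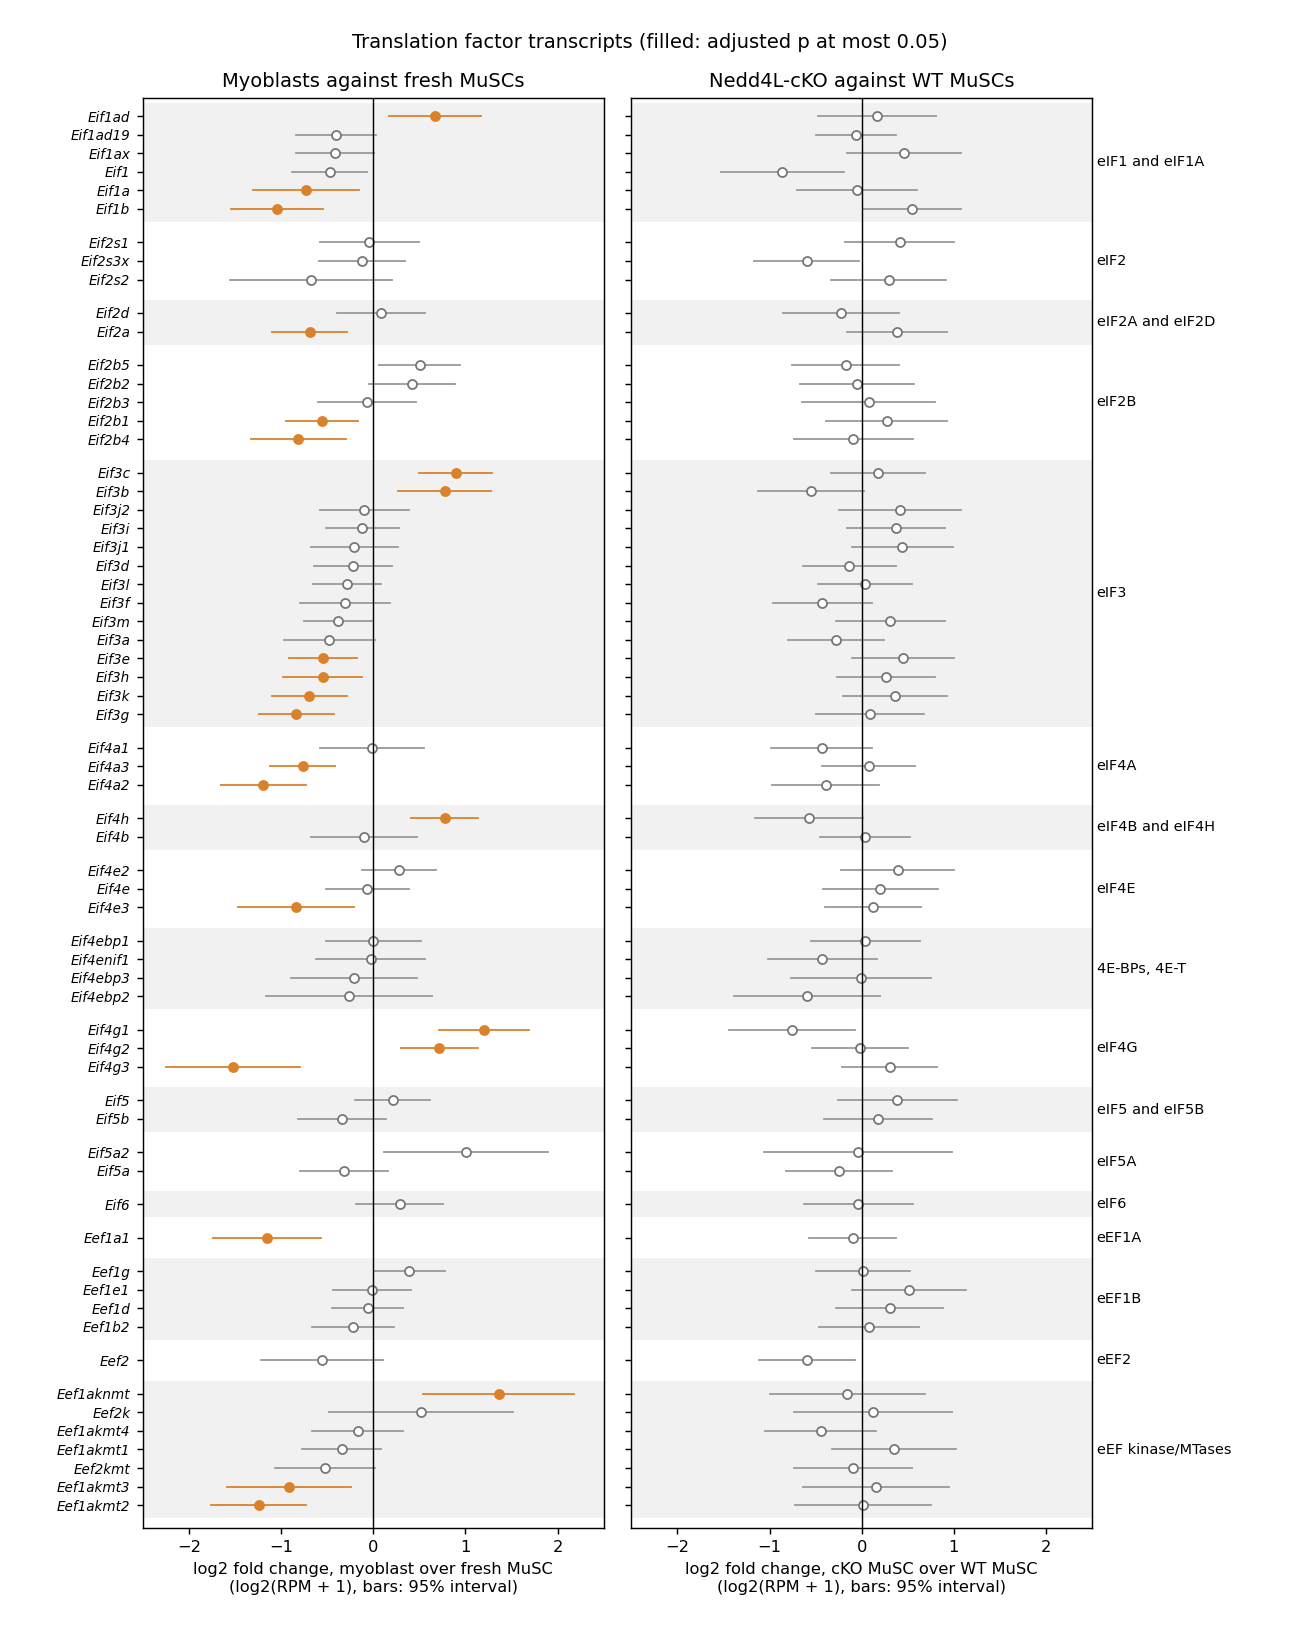
Log2 fold changes of the 63 tested members with 95% confidence intervals, for myoblasts over fresh MuSCs (left) and Nedd4L-cKO over WT MuSCs (right), grouped by factor complex, with filled points at a limma adjusted p of at most 0.05. On the left 7 filled points lie above 0 and 16 below, and on the right there is none.

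The eIF4G scaffolds all passed the test, in opposite directions. Eif4g1, the main scaffold of eIF4F (chr16:20487063-20511654, + strand, GRCm39), was at 66.2, 78.1 and 52.9 RPM in fresh MuSCs 04, 05 and 06 and at 129, 173 and 152 RPM in myoblasts 04, 05 and 06. All 3 myoblast libraries lay above all MuSC libraries, and the log2 fold change was 1.20 (SE 0.22, adjusted p = 0.0023). Eif4g3, the paralog of Eif4g1 (chr4:137720333-137935819, + strand), went the other way, from 91.5, 147 and 122 RPM to 24.6, 50.1 and 53.5 RPM (log2 fold change -1.52, SE 0.32, adjusted p = 0.00529). This was the largest change of any tested member. Eif4g2 (DAP5), which lacks the eIF4E-binding site and acts in cap-independent initiation, was the most abundant of the 3 per length, at 92.0 RPM per kb in MuSCs. It was at 868, 685 and 657 RPM in MuSCs and at 1393, 1166 and 1071 RPM in myoblasts (log2 fold change 0.72, SE 0.18, adjusted p = 0.0131). The call of Eif4g2 was lost without fresh MuSC 05 (adjusted p = 0.0559) or 06 (adjusted p = 0.0519).

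Among the eIF4A helicases, Eif4a1, the eIF4F subunit of growing cells and the most abundant of the 3 per length in MuSCs, was at 557, 457 and 563 RPM in MuSCs and at 756, 468 and 392 RPM in myoblasts. The groups overlapped, with myoblast 04 above and myoblast 06 below every MuSC library (log2 fold change -0.01, 95% confidence interval -0.58 to 0.55). Its paralog Eif4a2 (chr16:22925894-22932886, + strand) fell from 536, 457 and 489.6 RPM to 165, 242 and 248 RPM (log2 fold change -1.20, SE 0.20, adjusted p = 0.00176). Eif4a3, the helicase of the exon junction complex, fell from 350.0, 396 and 378 RPM to 215, 222 and 220.0 RPM (log2 fold change -0.77, SE 0.16, adjusted p = 0.00453). Both were lower in every myoblast library. Of the helicase cofactors, Eif4h was at 228 to 233 RPM in the MuSC libraries and at 430.5, 394 and 367 RPM in the myoblasts (log2 fold change 0.78, SE 0.16, adjusted p = 0.00459). Eif4b was at 196, 109 and 109.7 RPM in MuSCs and 117 to 138 RPM in myoblasts (log2 fold change -0.10, 95% confidence interval -0.67 to 0.47).

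The cap-binding protein Eif4e was at 396, 349 and 337 RPM in MuSCs and at 439.8, 318 and 291 RPM in myoblasts (log2 fold change -0.06, 95% confidence interval -0.52 to 0.39). Eif4e2 (4EHP), a cap-binding protein that does not bind eIF4G and represses translation, was the most abundant of the 3 tested eIF4E genes per length in this table, at 101 RPM per kb in MuSCs and 123 RPM per kb in myoblasts. This order rests on the annotated lengths, since in RPM Eif4e was higher (means of 361 against 159 in MuSCs). In WT MuSCs of the second table Eif4e was also higher per length, at 88.7 against 69.0 RPM per kb. Eif4e3, an atypical cap-binding protein, was at 58.7, 47.9 and 51.4 RPM in MuSCs and at 42.9, 24.3 and 23.1 RPM in myoblasts (log2 fold change -0.84, SE 0.28, adjusted p = 0.0375). Its call was lost with each library scaled to its own total (adjusted p = 0.064) and in 5 of the 6 fits that left out 1 library. The germline cap-binding gene Eif4e1b was below 0.5 RPM in every library and was not tested. None of the 4E-BPs passed the test. Eif4ebp1, by far the most abundant at 187 RPM per kb in MuSCs, was at 426, 350.4 and 350.1 RPM in MuSCs and 517, 302 and 333 RPM in myoblasts, with an interval of -0.52 to 0.52 for its log2 fold change. Eif4ebp2 was at 21.4 to 25.4 RPM in MuSCs, at 25.3 and 27.8 RPM in myoblasts 05 and 06 and at 9.24 RPM in myoblast 04. Per length, the 3 4E-BP transcripts together were 2.66 ± 0.0907 (SD, n = 3) times as abundant as Eif4e in MuSCs and 2.79 ± 0.293 times in myoblasts. In WT MuSCs of the second table this ratio was 1.63 ± 0.178. It too rests on the annotated lengths, since in RPM the means in fresh MuSCs were 375 for Eif4ebp1 and 361 for Eif4e. Eif4g1 was at 0.142 ± 0.0278 of the Eif4e level in MuSCs and at 0.353 ± 0.108 of it in myoblasts.

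**Figure D2:**
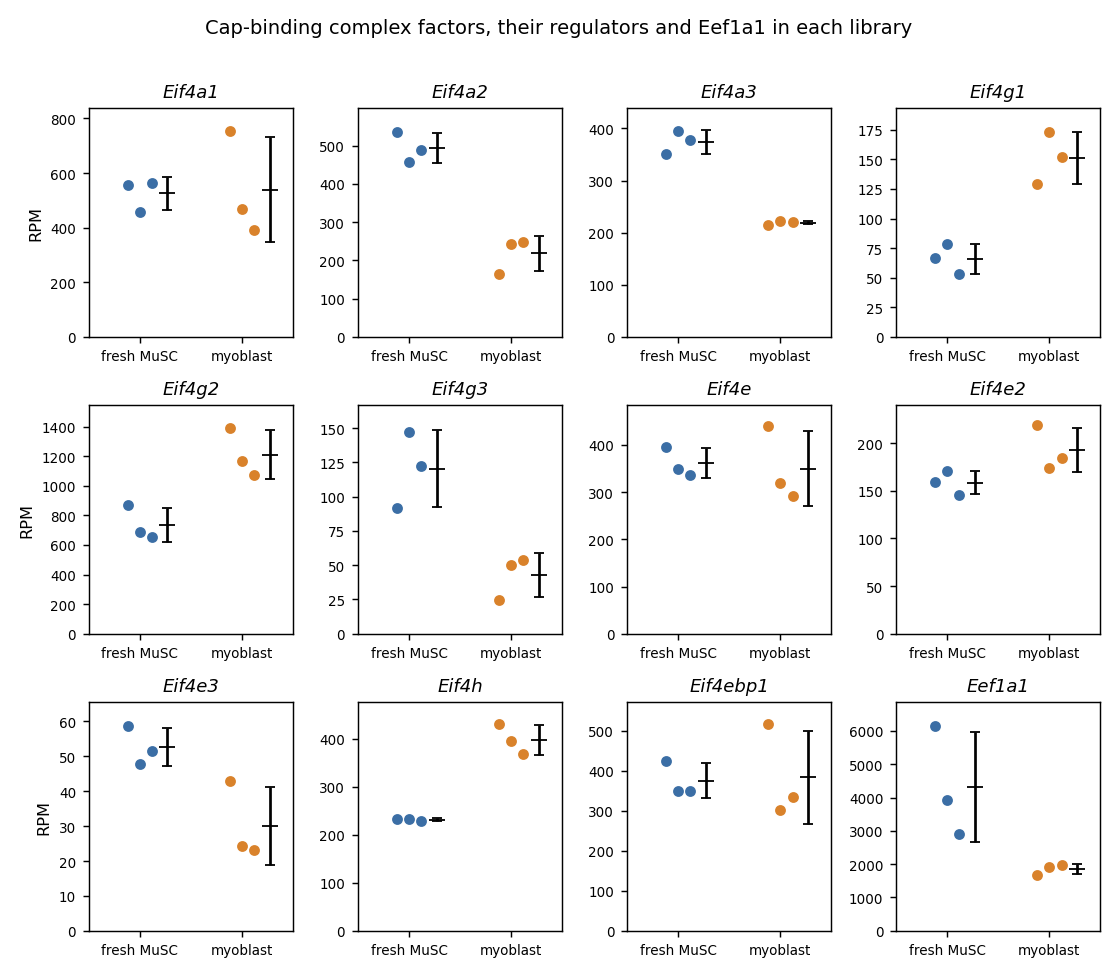
RPM of the eIF4F genes, their regulators and Eef1a1 in the 3 libraries of fresh MuSCs and the 3 of myoblasts (points, in the order 04, 05 and 06), with mean ± SD beside them. Eif4g1, Eif4g2 and Eif4h lie higher in every myoblast library, Eif4a2, Eif4a3, Eif4g3, Eif4e3 and Eef1a1 lower, and Eif4a1, Eif4e and Eif4ebp1 overlap.

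The balance between paralogs was taken as each gene's share of the summed RPM per kb of its group. The smallest p an exact two-sided permutation test of 3 against 3 libraries can give is 0.1, so no share could pass 0.05, and 13 shares were tested per table. In culture the share of Eif4a2 among Eif4a1 and Eif4a2 was 41.1%, 42.0% and 38.6% in the MuSCs and 13.7%, 27.2% and 31.4% in the myoblasts. Eif4g3 made up 11.2%, 19.7% and 18.0% of the eIF4G transcripts in MuSCs and 2.02%, 4.51% and 5.25% in myoblasts, while Eif4g1 went from 8.41% ± 1.38 (SD, n = 3) to 13.1% ± 2.57. Eif4e2 rose from 52.2% ± 2.70 to 60.4% ± 3.28 of the eIF4E transcripts in mean, with Eif4e3 at 10.5% ± 0.990 and 5.58% ± 1.07. Eif1b made up 10.5% ± 1.91 and 7.20% ± 0.629 of Eif1 and Eif1b. In each of these the groups did not overlap (exact permutation p = 0.1, adjusted p = 0.186). Eif4g2 remained the main eIF4G transcript, with 75.3% ± 5.47 and 83.0% ± 4.20 (exact permutation p = 0.3). Eif4ebp1 made up 96.4% to 99.4% of the 4E-BP transcripts in the 6 libraries, and Eif5a more than 99.7% of the eIF5A transcripts.

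**Figure D3:**
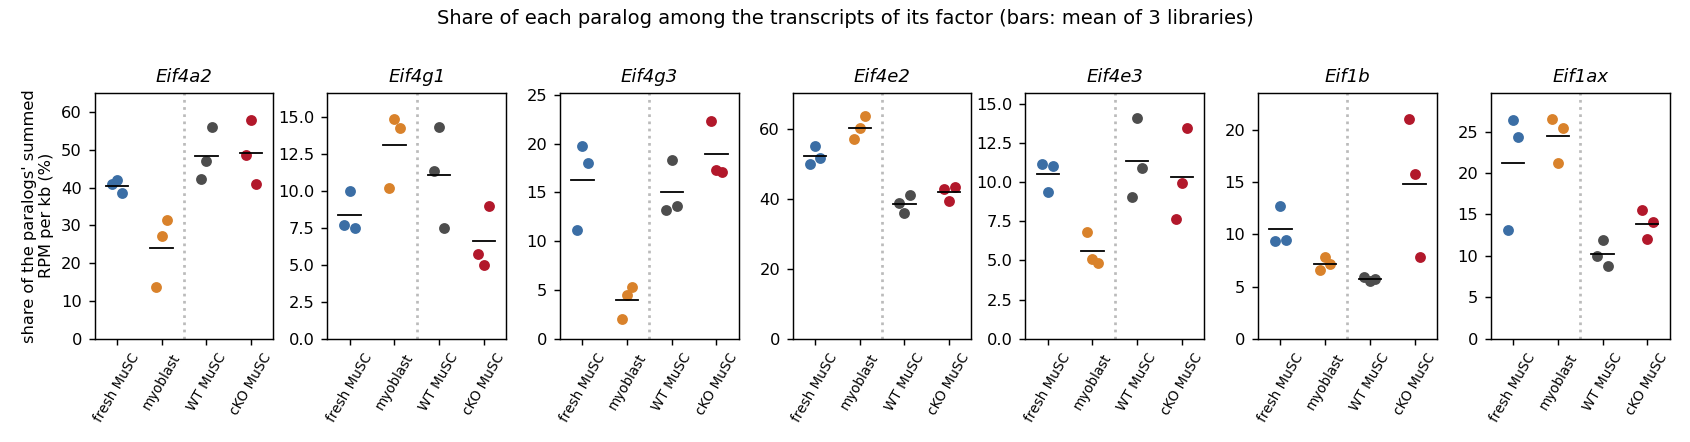
Share of a paralog in the summed RPM per kb of its factor's paralogs (percent, points are libraries, bars the mean of 3), with the tables of MuSCs and myoblasts and of WT and Nedd4L-cKO MuSCs separated by a dotted line. The shares of Eif4a2, Eif4g3, Eif4e3 and Eif1b lie lower, and those of Eif4g1 and Eif4e2 higher, in all 3 myoblast libraries than in the fresh MuSCs, and in the second table the shares of Eif1b and Eif1ax lie higher in all 3 Nedd4L-cKO libraries.

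eIF3, the large scaffold that holds the small ribosomal subunit and the mRNA together, had 2 of its 14 genes higher, 4 lower and 8 not passing the test. Over all tested genes 22.2% were higher and 20.6% lower, so these counts do not set eIF3 apart. The 2 higher subunits were Eif3c and Eif3b. Eif3c was at 225, 174 and 177 RPM in MuSCs and at 364, 361 and 339.6 RPM in myoblasts (log2 fold change 0.89, SE 0.18, adjusted p = 0.00364). Eif3b was at 294, 321 and 192 RPM in MuSCs and at 419, 506 and 431 RPM in myoblasts (log2 fold change 0.77, SE 0.22, adjusted p = 0.0214), a call that was lost without fresh MuSC 06 (adjusted p = 0.0667) or myoblast 05 (adjusted p = 0.0839). The groups did not overlap for either gene.

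The 4 lower subunits were Eif3g, Eif3k, Eif3h and Eif3e. Eif3g, the eIF3 gene with the highest level per length in MuSCs (379.7 RPM per kb), fell from 444, 458 and 361 RPM to 266, 211 and 229 RPM (log2 fold change -0.84, SE 0.18, adjusted p = 0.00589). Eif3k fell from 219, 217 and 176 RPM to 114, 127 and 136 RPM (log2 fold change -0.69, SE 0.18, adjusted p = 0.0138). Both were lower in every myoblast library. The changes of Eif3e and Eif3h were smaller, with log2 fold changes of -0.55 for each and adjusted p-values of 0.0259 and 0.0414 by limma. Their calls were lost in 7 and 10 of the 14 alternatives. The other 8 estimates ran from -0.48 for Eif3a to -0.10 for Eif3j2. The levels of the subunits differed far more than their changes, from 7.83 RPM per kb for Eif3j1 to that of Eif3g in MuSCs, a 48.5-fold range that was 31.3-fold in myoblasts. Eif3j1 and Eif3j2 are near-identical copies, and 94% of the 31-base words of the Eif3j2 transcript also occur in transcripts of Eif3j1, so the division of reads between them is uncertain.

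**Figure D4:**
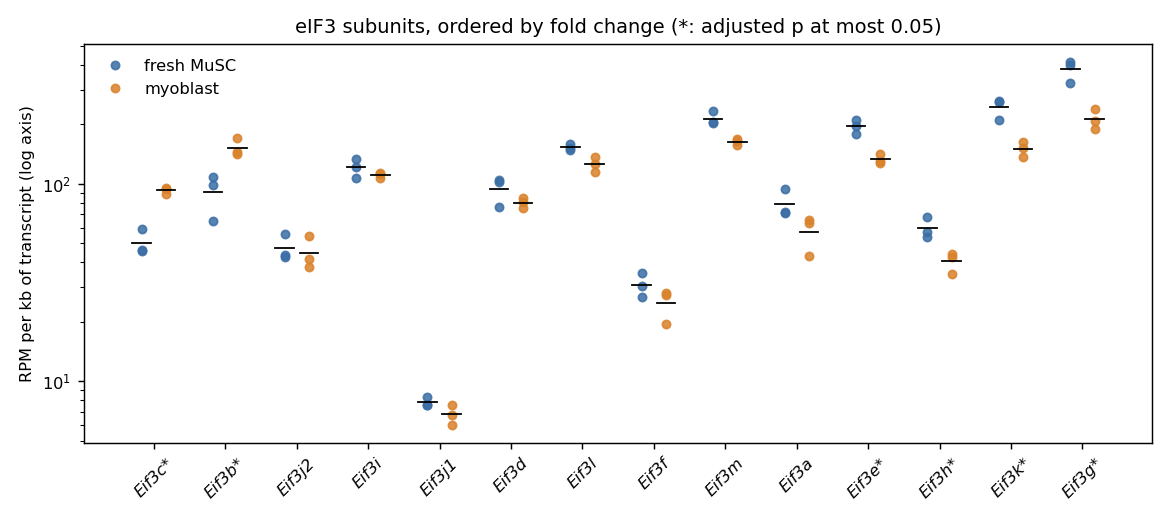
Level of the 14 eIF3 genes in RPM per kb of transcript (log axis) in each library of fresh MuSCs and myoblasts, with bars at the means, ordered from the largest increase to the largest decrease in myoblasts. Eif3c and Eif3b lie higher and Eif3e, Eif3h, Eif3k and Eif3g lower in all 3 myoblast libraries, and Eif3j1 is the lowest in both groups.

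The factors that bind the initiator tRNA and its regulators are set against the 42.8% of all tested genes that were called. None of the 3 eIF2 subunits passed the test. Eif2s1, the subunit whose phosphorylation triggers the integrated stress response, was at 345, 325 and 469 RPM in MuSCs and 489, 295 and 334 RPM in myoblasts (log2 fold change -0.04, 95% confidence interval -0.58 to 0.50). Eif2s2, the most abundant of the 3 per length, was at 543 to 711 RPM in MuSCs, at 231 and 302 RPM in myoblasts 05 and 06 and at 759.9 RPM in myoblast 04. Without myoblast 04 it passed the test (log2 fold change -1.18, adjusted p = 0.00174), against a log2 fold change of -0.67 and an adjusted p of 0.190 with it (limma). Eif2s3x was at 89.3 to 121 RPM and 79.2 to 101 RPM.

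Of the 5 subunits of eIF2B, 2 were lower, where 20.6% of all tested genes were lower and 22.2% higher. Eif2b4 was at 131, 88.8 and 99.7 RPM in MuSCs and at 49.4, 60.4 and 70.1 RPM in myoblasts (log2 fold change -0.81, SE 0.23, adjusted p = 0.0187), and the call was lost without fresh MuSC 04 (adjusted p = 0.0596) or myoblast 05 (adjusted p = 0.055). Eif2b1, the most abundant per length in MuSCs, was at 162, 151 and 140.5 RPM and at 104, 93.8 and 109 RPM (log2 fold change -0.56, adjusted p = 0.0301). Both belong to the regulatory part of eIF2B that senses phosphorylated eIF2, as does Eif2b2, which was higher in each myoblast library, at 98.2 ± 20.4 RPM (SD, n = 3) in MuSCs and 130.2 ± 11.3 RPM in myoblasts, but missed the threshold (log2 fold change 0.42, adjusted p = 0.128). Eif2b5, the catalytic subunit, was higher in each myoblast library, at 88.7 to 105 RPM in MuSCs and 122 to 159.7 RPM in myoblasts, but missed the threshold (adjusted p = 0.0626). With each library scaled to its own total Eif2b5 and Eif2b2 passed it and Eif2b1 did not. Eif2a, a separate protein that can carry initiator tRNA and is not a subunit of eIF2, fell from 164, 129 and 150.4 RPM to 94.8, 86.4 and 90.9 RPM (log2 fold change -0.69, SE 0.18, adjusted p = 0.0137). Eif2d was at 41.9 to 43.7 RPM and 38.2 to 49.2 RPM.

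Of the 6 genes for the scanning factors eIF1 and eIF1A and their relatives, 1 was higher and 2 were lower. The shares over all tested genes were 22.2% and 20.6%. Eif1, the start codon fidelity factor and the most abundant of the 6 per length, was at 1074, 944 and 1193 RPM in MuSCs and at 661, 767 and 886 RPM in myoblasts. The groups did not overlap, but the adjusted p was 0.0603 (log2 fold change -0.48). Eif1b, its paralog, fell from 86.0, 106 and 95.7 RPM to 35.9, 50.4 and 52.8 RPM (log2 fold change -1.05, SE 0.22, adjusted p = 0.00502). Eif1a was at 552, 287 and 310.4 RPM in MuSCs and at 208 to 228 RPM in myoblasts (log2 fold change -0.73, adjusted p = 0.0443), and without fresh MuSC 04, the highest library, the log2 fold change was -0.43 (adjusted p = 0.0989). Eif1ad, whose product resembles eIF1A, was at 58.0, 68.8 and 46.9 RPM in MuSCs and 109, 87.4 and 81.0 RPM in myoblasts (log2 fold change 0.67, adjusted p = 0.0373). Its call was lost in 7 of the 14 alternatives. Of the 31-base words of the Eif1ad transcript, 28.1% also occur in transcripts of other genes, most of them in Banf1.

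Neither gene of the joining factors passed the test. Eif5, which makes eIF2 hydrolyse its GTP, was at 491 to 580.4 RPM in MuSCs and 544 to 727 RPM in myoblasts, and Eif5b at 155 to 193 RPM and 116 to 174 RPM. Eif5a, which with its paralog is the only known protein to carry the amino acid hypusine and is a factor of elongation and termination, was the second most abundant member per length in MuSCs and the first in myoblasts. It was at 2461, 2239 and 1994 RPM in MuSCs and 2399, 1556 and 1528 RPM in myoblasts (log2 fold change -0.32, adjusted p = 0.254), and without myoblast 04 the log2 fold change was -0.53 (adjusted p = 0.0168). Its paralog Eif5a2 was at 4.68 to 5.22 RPM in MuSCs and at 18.7, 11.1 and 6.41 RPM in myoblasts (log2 fold change 1.00, adjusted p = 0.0663), and passed the test with each library scaled to its own total. Eif6, which keeps the ribosomal subunits apart, was at 167 to 242 RPM and 221 to 297 RPM (adjusted p = 0.294).

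Of the elongation factors, Eef1a1 (chr9:78384916-78396778, - strand), which brings aminoacyl-tRNA to the ribosome and whose start is printed above, fell. It was at 6133, 3920.2 and 2898 RPM in fresh MuSCs 04, 05 and 06 and at 1681, 1924 and 1965 RPM in myoblasts 04, 05 and 06 (log2 fold change -1.15, SE 0.26, adjusted p = 0.00697). Every myoblast library lay below every MuSC library, and the MuSC libraries differed among themselves by more than the myoblasts did. Eef1a1 alone made up 16.5% to 25.7% of the summed RPM of the tested members in MuSCs and 9.64% to 12.8% in myoblasts. Of the 31-base words of its transcript, 75.7% also occur in transcripts of 29 other genes, so its level is uncertain. More than 50% of the words were shared for 12 of the 64 members. Eef2, the translocase, was at 1523, 813 and 661 RPM in MuSCs and at 551, 684 and 681 RPM in myoblasts. The groups overlapped and the test was not passed (log2 fold change -0.56, 95% confidence interval -1.22 to 0.10, adjusted p = 0.153). Per length, Eef1a1 was 7.59 ± 0.686 (SD, n = 3) times as abundant as Eef2 in MuSCs and 5.02 ± 0.208 times in myoblasts.

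The eEF1B complex, which recharges eEF1A with GTP, gave no call. Eef1g, its most abundant subunit per length, was at 309.8 to 409 RPM in MuSCs and 453 to 468 RPM in myoblasts, without overlap (log2 fold change 0.39, adjusted p = 0.0935), and passed with each library scaled to its own total (adjusted p = 0.0271). The Eef1g transcript shares 68% of its 31-base words with other genes. Eef1b2 and Eef1d had log2 fold changes of -0.22 and -0.06. Eef1e1, grouped with them here but a scaffold protein of the synthetase complex, had a log2 fold change of -0.01. Among the enzymes that modify elongation factors, Eef1akmt2, a lysine methyltransferase of eEF1A, fell from 74.9, 95.1 and 88.3 RPM to 45.4, 32.7 and 30.5 RPM (log2 fold change -1.24, SE 0.23, adjusted p = 0.00252). Eef1aknmt, which methylates the N-terminus and a lysine of eEF1A, was at 7.33, 8.01 and 17 RPM in MuSCs and 30.6, 32.0 and 21.0 RPM in myoblasts (log2 fold change 1.36, SE 0.36, adjusted p = 0.0152). Its call was lost without fresh MuSC 05 (adjusted p = 0.057) or myoblast 05 (adjusted p = 0.063). Eef1akmt3 was at 2.87 to 4.41 RPM in MuSCs and 1.11 to 1.69 RPM in myoblasts (log2 fold change -0.92, adjusted p = 0.0337). Its call was lost in 8 of the 14 alternatives. Eef1akmt1, the most abundant of these enzymes per length, and the eEF2 kinase Eef2k, at 4.07 to 12.3 RPM and 6.85 to 14.7 RPM, did not pass.

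Fresh MuSC 04 held the highest value of its group for 36 of the 63 members, and myoblast 04 held the highest for 30 and the lowest for 24. The summed RPM of the tested members was 17560 to 23838 in MuSCs and 15336 to 17448 in myoblasts, and without Eef1a1 the ranges overlapped, at 14662 to 17705 and 13371 to 15767.

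Lists of genes that act with these factors are read against all tested genes, of which 22.2% were higher and 20.6% lower in myoblasts. Of the 22 genes of the cytosolic aminoacyl-tRNA synthetases, which charge tRNAs, and of the scaffold of their complex, 12 were higher in myoblasts and 3 lower, with a median log2 fold change of 0.61. Aars, for alanine, was at 49.5 to 57.8 RPM in MuSCs and 293 to 343 RPM in myoblasts (log2 fold change 2.53). Cars (2.20) and Gars (2.11) followed. Of 15 genes of the eIF2 kinases and the integrated stress response, 4 were higher and 5 lower. Asns, asparagine synthetase and an ATF4 target, was at 0 to 3.98 RPM in MuSCs and 359.96 to 514 RPM in myoblasts (log2 fold change 7.66). Trib3 was listed at 0 in all 3 MuSC libraries and was at 48.3, 11.2 and 10.6 RPM in the myoblasts, and Chac1 rose by 3.73 on the log2 scale. The 5 lower genes, named after their values were seen, were Ppp1r15a (GADD34, which directs dephosphorylation of eIF2), from 718 to 805 RPM in MuSCs and 106 to 134 RPM in myoblasts (log2 fold change -2.66), the kinases Eif2ak3 (-1.57) and Eif2ak2 (-1.34), the stress-induced transcription factor Ddit3 (-1.30) and Impact (-0.99), an inhibitor of Gcn2 activation. Atf4 was at 107 to 137 RPM in MuSCs and 92.8 to 113 RPM in myoblasts (adjusted p = 0.396). Of 16 mTORC1 pathway genes, which include activators and inhibitors, 5 were higher, among them Akt1s1 (log2 fold change 3.09) and Rptor (1.91). In the same list 4 were lower, among them Tsc1 (-1.93). Of 12 eIF4E kinases and eIF4F partners, 3 were lower, Ddx3x (-1.60), Paip2 (-1.12) and Fmr1, and 1 was higher. Of 6 hypusine and polyamine genes, Sms (1.10) and Dohh (1.07) were higher and Srm (-0.73) lower. Of 8 reinitiation and recycling genes, Hbs1l alone passed, lower (-0.69). Of 11 mitochondrial and selenocysteine factors, Tufm (0.90) and Gfm1 (0.80) were higher and Mrrf (-0.87) was lower.

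Nedd4L-cKO MuSCs were compared with WT MuSCs in the second table. None of the 63 tested members passed an adjusted p of 0.05 (limma, 15304 genes tested), where 0.784% of all genes did. At an unadjusted p under 0.05 there were 5 members (7.94%, against 14.6% of all genes), 4 lower and 1 higher (7.13% and 7.51% of all genes). The estimate was above 0 for 35 members and below it for 28, and the median log2 fold change was 0.04 over the members and 0.00152 over all genes. This split also depends on scaling and on 1 library. With each library scaled to its own total 25 estimates lay above 0 and 38 below, with medians of -0.089 for the members and -0.0915 for all genes, and without Nedd4L-cKO 01 there were 27 and 36. The groups did not overlap for 11 members (17.5%, against 19.3% of all genes), 4 with the Nedd4L-cKO higher (9.75% of all genes) and 7 with it lower (9.59%). The standard errors of the members ran from 0.20 to 0.47 on the log2 scale, with a median of 0.27.

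Of the 5 members with the smallest p in the lower direction, Eif1, also the most abundant of its group per length, was at 1582, 1338 and 1448 RPM in WT 01, 02 and 03 and at 546, 721 and 1296 RPM in Nedd4L-cKO 01, 02 and 03. The groups did not overlap, but Nedd4L-cKO 03 came close to the WT libraries (log2 fold change -0.86, SE 0.31, adjusted p = 0.234). Without Nedd4L-cKO 03 it was the only member to pass, with a log2 fold change of -1.21 and an adjusted p of 0.0449. Of the 31-base words of the Eif1 transcript, 57.0% also occur in transcripts of other genes. Eef2 was at 846, 704 and 624 RPM in WT and 425, 461 and 549 RPM in Nedd4L-cKO MuSCs, without overlap (log2 fold change -0.59, SE 0.24, adjusted p = 0.285). Eif4g1 was at 64.7, 78.2 and 45.6 RPM and at 28.3, 30.5 and 53.5 RPM, where the third Nedd4L-cKO library overlapped WT (log2 fold change -0.76, adjusted p = 0.301). Eif2s3x, the X-linked eIF2 subunit, was at 86.3 to 112 RPM in WT and 50.6 to 82.6 RPM in Nedd4L-cKO (log2 fold change -0.60, adjusted p = 0.323), and Eif4h was at 118 to 181 RPM and 80.1 to 118 RPM (adjusted p = 0.348).

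In the other direction Eif1b was at 76.7, 60.3 and 68.0 RPM in WT and 112, 104 and 84.8 RPM in Nedd4L-cKO MuSCs, without overlap (log2 fold change 0.54, SE 0.24, adjusted p = 0.332). Eef1e1, a scaffold protein of the synthetase complex, had a log2 fold change of 0.51, Eif3j1 and Eif3e of 0.44 each and Eif1ax of 0.46, with adjusted p-values of 0.429 to 0.494 (limma). For these 4 the highest library was Nedd4L-cKO 01, at 102, 76.2, 546 and 375 RPM. Nedd4L-cKO 01 held the highest value of its group for 37 of the 63 members and Nedd4L-cKO 03 the lowest for 38, and the median coefficient of variation of the members was 24.6% in the Nedd4L-cKO libraries and 15.4% in WT.

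**Figure D5:**
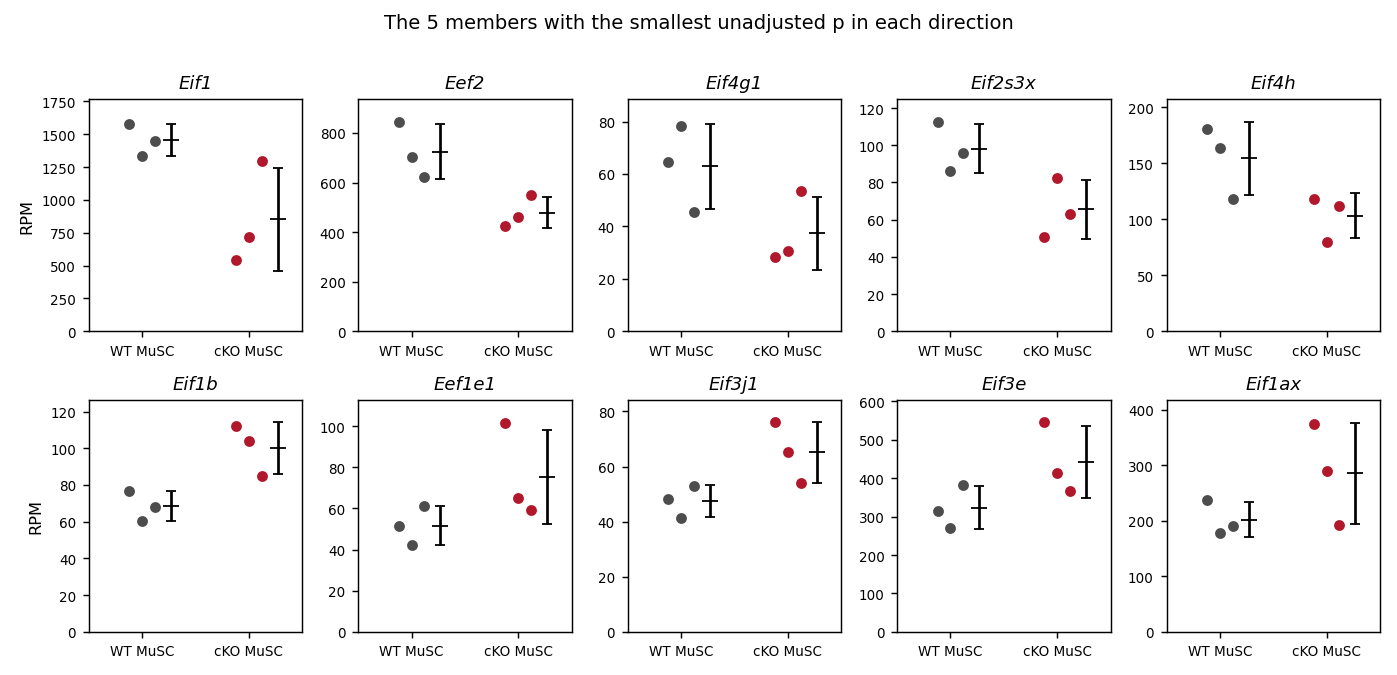
RPM of the 5 members with the smallest unadjusted p in each direction (upper row lower, lower row higher in Nedd4L-cKO) in the 3 WT and 3 Nedd4L-cKO MuSC libraries (points, in the order 01, 02 and 03), with mean ± SD. None passed the adjusted threshold, and Nedd4L-cKO 03 lies nearest to WT of the 3 Nedd4L-cKO libraries to the WT mean for Eif1, Eef2, Eif4g1, Eif1b, Eef1e1, Eif3j1, Eif3e and Eif1ax, and not for Eif2s3x and Eif4h.

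Among the other members, Eef1a1 was at 3303 to 3793 RPM in WT and 3158 to 3337 RPM in Nedd4L-cKO MuSCs (log2 fold change -0.10, 95% confidence interval -0.57 to 0.38). Eif5a was at 1479 to 2073 RPM and 1148 to 1829 RPM. The estimates of the 14 eIF3 genes ran from -0.55 for Eif3b to the 0.44 of Eif3j1 and Eif3e. In eIF4F, Eif4a1 was at 732, 637 and 450.3 RPM and at 412, 434 and 476 RPM (log2 fold change -0.43, adjusted p = 0.458), and Eif4e at 368 to 485 RPM and 344 to 687 RPM. The share of Eif1b in the eIF1 transcripts was 5.92%, 5.52% and 5.74% in WT and 21.1%, 15.8% and 7.82% in Nedd4L-cKO MuSCs, and that of Eif1ax in the eIF1A transcripts 10.2% ± 1.60 and 13.9% ± 1.77 (SD, n = 3). These were the 2 of 13 tested shares whose groups did not overlap (exact permutation p = 0.1, adjusted p = 0.65). Of the genes in the 7 pathway lists, none passed an adjusted p of 0.05 by limma, and 7 were higher and 5 lower at an unadjusted p under 0.05. The spermidine synthase gene Srm came nearest, at 111, 112 and 92.2 RPM in WT and 36.3, 41.3 and 55.8 RPM in Nedd4L-cKO (log2 fold change -1.24, adjusted p = 0.0502).

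The 2 comparisons share no library. Across the 63 members Pearson's r of the log2 fold changes was -0.22, against 0.05 across the 14343 genes tested in both, where genes are not independent replicates. The 2 estimates had the same sign for 38.1% of the members, against 48.0% of all genes tested in both. Eif4g1 and Eif4h were higher in myoblasts and had estimates of -0.76 and -0.57 in the Nedd4L-cKO. Eif1b was lower in myoblasts, with an estimate of 0.54 in the Nedd4L-cKO. Eif1 and Eef2, called in neither comparison, had estimates of -0.48 and -0.56 in culture and -0.86 and -0.59 in the Nedd4L-cKO. None of these genotype estimates passed the adjusted threshold. The WT MuSCs of both tables, though normalized separately, gave levels per length within a factor of 2 of each other for 58 of the 63 members, and Pearson's r across members was 0.98 on the log2 scale.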

How the data were processed

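Each library was taken from 1000 cells with SMART-seq. The authors quantified reads with kallisto 0.46.1 on the GENCODE basic annotation of GRCm39, summed to genes with tximport and normalized with DESeq2. The deposited values used are a signal, namely counts the authors divided by DESeq2 normalization factors that differ by gene and library, so reads were not recovered and precision from depth cannot be given. The deposited RPM columns were recorded as a score and not used, because the authors' divisor changes from gene to gene. The deposited log2 fold changes, their statistics and p-values, which the authors computed with DESeq2, were not used. Groups came from the sample titles, and ages from the study.

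RPM was obtained from the normalized counts with 1 divisor per table, the mean of its 6 library totals. Genes reaching 10 normalized counts in 3 or more libraries were tested on log2(RPM + 1) with limma 3.58.1 in R 4.3.3 (trend and robust moderation, group as the only term, Benjamini-Hochberg adjustment), which was tested on simulated data. For genes of low level this scale makes fold changes smaller. Adjusted p-values in the text are limma's unless an exact permutation test is named. The labels give the groups of each table the same replicate numbers without saying that a number marks a shared mouse. In the first table the descriptions also give same-numbered MuSC and myoblast libraries a common identifier, whose meaning is not stated. The libraries were not paired in the main fit, and the replicate block, which follows these identifiers in culture, is the paired alternative. Nothing in the labels gives batches or dates. Members and gene lists were chosen with earlier results of these data known. In each complex, members at an adjusted p of at most 0.05 were named, up to 4 for eIF3, eIF1 and the modifying enzymes, with the most abundant member per length, and in the genotype comparison the 5 smallest p in each direction. Of each pathway list at most 3 called genes were named, except where others are said to be named after their values were seen. Positions, canonical starts and lengths came from GENCODE M39 on GRCm39, a later release than the authors used, and the share of 31-base words (the default kallisto word length) from its transcripts. Alternatives were 3 other scalings, another pseudocount, 2 other filters, plain moderation, the replicate block and each library left out.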

Additional observations from a re-analysis of the deposited data

How the results depend on the processing

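Between myoblasts and fresh MuSCs the count of 23 members called was 18 to 23 under other scalings, pseudocount, filters, plain moderation and the replicate block, none of the 23 calls changed direction in any alternative, and leaving out 1 library gave 12 to 24. Requiring a log2 fold change of at least 1 gave 7. The members' median log2 fold change of -0.22 was -0.085 with own library totals and -0.087 with own totals without mitochondrial genes, which moved the median of all genes from 0.04 to 0.14 in both. Between the genotypes 0 members were called by limma in every fit across all libraries, 1 (Eif1) without Nedd4L-cKO 03 and 0 without any other library, and 5 at an unadjusted p under 0.05. The groups share replicate numbers, and in culture also an unexplained identifier that follows these numbers. With the number as a block 19 members were called in culture, without Eif2b1 (adjusted p = 0.0617), Eif3h (0.0794), Eef1akmt3 (0.0581) and Eif1ad (0.053), and 0 between the genotypes by limma. As a check of the pairing, same-numbered MuSC and myoblast libraries had correlations of their deviations from the group means of -0.0314, -0.00502 and 0.0180, and 1 of 6 libraries correlated best with its own number, as did 1 of 6 between the genotypes. Over the named members and alternatives, 66 values in culture lost and 4 gained the threshold while keeping their direction, and 1 gained it between the genotypes. Of the isoform shares, 3 moved by more than their spread, each with RPM not divided by length.

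Estimates near 0 changed sign, none of them called. In culture, Eif4a1 was 0.12 with own library totals, 0.000618 with median-of-ratios factors, 0.12 without mitochondrial genes and -0.29 to 0.19 without 1 library, and Eif4ebp1 was 0.14, 0.015, 0.13 and -0.23 to 0.15. Between genotypes, with own totals and own totals without mitochondrial genes, Eef1g was -0.12 and -0.080, Eif3g -0.042 and -0.0044 and Eif4ebp1 -0.088 and -0.051. Without 1 library, Eef1g ran from -0.11 to 0.11, Eif3g from -0.10 to 0.33, Eif4e from -0.015 to 0.48, Eif4ebp1 from -0.21 to 0.18, Eif4g2 from -0.12 to 0.11 and Eif6 from -0.23 to 0.14. The cause was not tested. With 3 libraries a group and no read depth, small changes of these factors could not be resolved.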
